A study of Arabidopsis thaliana with 3 samples.

Results

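The genes described here are nuclear genes for the photosynthetic apparatus of the chloroplast: the light-harvesting antenna, photosystem I, photosystem II, the NADH dehydrogenase-like (NDH) complex of the thylakoid membrane, and Rubisco with its activase. They were taken from the table that pairs the array's probe sets with genes, by symbol, as nuclear genes whose symbol begins with LHCA, LHCB, CAB, PSA, PSB, PETE, RBCS, PNSL, PNSB or NDH, or is RCA. The rule gave 12 genes of the 13356 that had a named probe set. Their transcripts were measured on 3 Affymetrix arrays in Arabidopsis thaliana, from whole seedlings 2 weeks old that had grown at 22 °C with days of 16 h and nights of 8 h. The arrays were 1 of a transgenic plant overexpressing DRB2, 1 of a transgenic plant overexpressing DRB3 and 1 of the wild type. DRB2 and DRB3 belong to a family of proteins with double-stranded RNA binding domains that act in small RNA pathways.

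There was no replicate of any group, so the differences have no error and no p-value, and their precision is limited by the number of arrays. The sources used here do not give the promoter of the transgenes, the number of lines or the number of seedlings pooled. Neither DRB2 nor DRB3 was among the named genes, so the labels were not checked on the overexpressed genes. The design text deposited with the series describes a kinase gene and salt treatment, which differs from the sample labels, and the groups follow the sample labels. The DRB2 overexpressor array stood apart in its poly(A) spike-in controls, which read a median of 4.36-fold below those of wild type. Genes for green tissue and the root gene PYK10, for a beta-glucosidase abundant in roots, were both above the floor for weak signals on all 3 arrays.

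Both photosystems are built from subunits made on 2 genomes. The reaction centre proteins are mostly encoded in the chloroplast, while the antenna proteins, several small or peripheral subunits and the assembly factors are encoded in the nucleus and imported. Photosystem II takes electrons from water, photosystem I passes them to ferredoxin, and the NDH complex returns electrons from ferredoxin to the plastoquinone pool in cyclic electron flow around photosystem I. Rubisco fixes carbon dioxide in the stroma, and its activase keeps it in an active state.

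Of the 67 nuclear genes of these complexes that the RefSeq gene table lists under such symbols, the 12 measured were 3 of 12 for the photosystem II antenna, 2 of 12 for photosystem I, 3 of 14 for photosystem II, 3 of 17 for the NDH complex and 1 of 5 for Rubisco and its activase. None of the 6 genes for the photosystem I antenna and no plastocyanin gene was among them, and these were not analysed here. The antenna is therefore represented by the LHCB4 genes alone, and Rubisco itself by no gene. Each of the 12 was read by 1 probe set, of the class designed to match a single transcript. Values are MAS5 intensities, a summary of the probes of a probe set on a linear scale. The floor for weak signals was 109 intensity units, and all 12 genes were above it on every array, the lowest value being 8.45 times the floor. Intensities of different probe sets are not comparable with each other, so each gene of the set was compared only with itself across arrays.

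**Figure D1:**
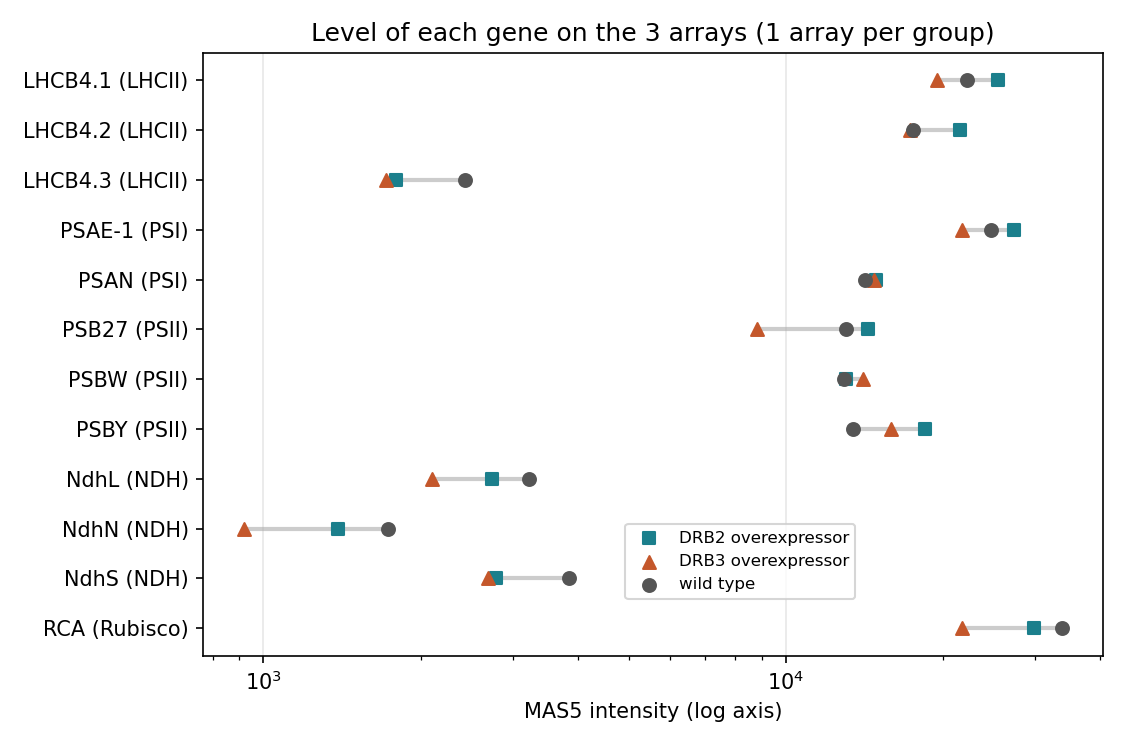
MAS5 intensity (log axis) of the 12 genes on the DRB2 overexpressor array, the DRB3 overexpressor array and the wild-type array, 1 point per array, with a grey line over the range of each gene. The DRB3 overexpressor point is the lowest of the 3 for 9 genes as deposited and for 6 after quantile normalization, and for NdhL, NdhN, NdhS, LHCB4.3 and RCA the wild-type point is the highest.

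No gene was 2-fold apart between any 2 arrays, and the widest range over the 3 arrays was 1.89-fold, for NdhN. Over all named genes, 0.943% were at least 2-fold apart between the DRB2 overexpressor and wild type, 2.97% between the DRB3 overexpressor and wild type, and 1.19% between the DRB3 and the DRB2 overexpressor. A count of 0 of 12 is therefore near the background. The 3 NDH genes read lower on both overexpressor arrays than on the wild-type array, and 7 of the 8 antenna and photosystem genes read higher than wild type on the DRB2 overexpressor array. On that array, 48.3% of named genes above the floor read lower than wild type and 51.7% higher. On the DRB3 overexpressor array 50% read lower. Antenna genes differed in direction among themselves on the DRB2 overexpressor array, and photosystem II genes on the DRB3 overexpressor array.

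The antenna genes code for the CP29 protein, which links the photosystem II core to the outer antenna trimers. LHCB4.1 (AT5G01530) read 25474 in the DRB2 overexpressor, 19469 in the DRB3 overexpressor and 22264 in wild type. LHCB4.2 (AT3G08940) read 21569 in the DRB2 overexpressor, 17275 in the DRB3 overexpressor and 17552 in wild type. These isoform genes were highest on the DRB2 overexpressor array, with log2 ratios over wild type of 0.19 and 0.30. On the DRB3 overexpressor array they differed little from wild type, with log2 ratios of -0.19 and -0.02. The signs of this last pair rest on scaling, since quantile normalization gave 0.05 and 0.17, and a loess correction on level gave -0.0022 for LHCB4.1 and 0.15 for LHCB4.2.

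LHCB4.3 (AT2G40100), the divergent isoform of the group, read 1793 in the DRB2 overexpressor, 1720 in the DRB3 overexpressor and 2432 in wild type. Unlike LHCB4.1 and LHCB4.2 it was lower on both overexpressor arrays, by log2 ratios of -0.44 and -0.50, that is 1.36-fold and 1.41-fold. The overexpressor arrays differed from each other for this gene by a log2 ratio of only -0.06, DRB3 over DRB2. On the DRB2 overexpressor array the 3 isoform genes thus did not share a direction.

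Among photosystem I genes, PSAE-1 (AT4G28750) codes for a stromal subunit that helps dock ferredoxin and PSAN (AT5G64040) for a lumenal subunit on the side where plastocyanin docks. PSAE-1 read 27376 in the DRB2 overexpressor, 21737 in the DRB3 overexpressor and 24745 in wild type. PSAN read 14874 in the DRB2 overexpressor, 14716 in the DRB3 overexpressor and 14162 in wild type. PSAN was the steadiest of the 12, with a range of 1.05-fold over the 3 arrays. PSAE-1 was 1.26-fold lower in the DRB3 than in the DRB2 overexpressor, or -0.33 on the log2 scale. Its log2 ratio of -0.19 over wild type in the DRB3 overexpressor became 0.13 after quantile normalization and 0.01 after loess.

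The photosystem II genes were PSBY (AT1G67740) and PSBW (AT2G30570), for small membrane subunits, and PSB27 (AT1G03600), for a lumenal factor that binds photosystem II during its assembly and repair. PSBY read 18435 in the DRB2 overexpressor, 15904 in the DRB3 overexpressor and 13450 in wild type. It was the gene with the highest ratios over wild type on both overexpressor arrays, 1.37-fold and 1.18-fold. PSBW read 13042 in the DRB2 overexpressor, 14055 in the DRB3 overexpressor and 12896 in wild type. As deposited, it had the smallest difference from wild type on the DRB2 overexpressor array, at a log2 ratio of 0.02. It was also the single gene of the 12 that read highest in the DRB3 overexpressor as deposited, where 2 genes did after quantile normalization.

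PSB27 went apart from the structural subunits in the DRB3 overexpressor. It read 14359 in the DRB2 overexpressor, 8803 in the DRB3 overexpressor and 13045 in wild type. The DRB3 overexpressor value was 1.63-fold below that of the DRB2 overexpressor, the widest gap of the 12 genes in that comparison, and 1.48-fold below wild type. Of the 6779 named genes above the floor on all 3 arrays, 3.92% had a lower ratio than PSB27 between the DRB3 and the DRB2 overexpressor. The log2 ratio of -0.71 was -0.62 both after quantile normalization and after loess.

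The NDH genes shared a direction in all 3 comparisons. NdhL codes for a membrane subunit, NdhN for a subunit of the stromal arm and NdhS for the subunit at the ferredoxin binding site. NdhN (AT5G58260) read 1388 in the DRB2 overexpressor, 918 in the DRB3 overexpressor and 1734 in wild type. NdhL (AT1G70760) read 2735 in the DRB2 overexpressor, 2103 in the DRB3 overexpressor and 3224 in wild type. NdhS (AT4G23890) read 2791 in the DRB2 overexpressor, 2691 in the DRB3 overexpressor and 3850 in wild type. All 3 were highest in wild type and lowest in the DRB3 overexpressor, although for NdhS the overexpressor arrays lay close together, with a log2 ratio of -0.05. Of named genes above the floor, 34.0% were highest in wild type and 37.4% lowest in the DRB3 overexpressor. The share with both was not counted. The comparison between the overexpressors is the difference of those with wild type, so it is not a separate reading.

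Over wild type, the median log2 ratio of the NDH genes was -0.32 in the DRB2 overexpressor, with a range from -0.46 to -0.24. In the DRB3 overexpressor it was -0.62, with a range from -0.92 to -0.52. These comparisons share the wild-type array. NdhN had the largest difference from wild type of the 12 genes, 1.89-fold lower in the DRB3 overexpressor, and 3.67% of the 6779 genes above the floor had a lower ratio. Scaling moved these medians little: quantile normalization gave -0.31 and -0.62, and loess -0.31 and -0.59.

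RCA (AT2G39730), for Rubisco activase, read 29895 in the DRB2 overexpressor, 21690 in the DRB3 overexpressor and 33718 in wild type. It followed the order of the NDH genes, 1.13-fold lower than wild type in the DRB2 overexpressor and 1.55-fold lower in the DRB3 overexpressor. RCA is among the brightest probe sets. The highest intensity of any probe set outside the controls was 39159 in the DRB2 overexpressor, 34458 in the DRB3 overexpressor and 44262 in wild type, while the 90th percentile was 1488, 1509 and 1498 in the same order, and the part of this in the ratio of RCA was not tested. Its log2 ratio over wild type in the DRB3 overexpressor was -0.64 as deposited, -0.31 after quantile normalization and -0.42 after loess.

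**Figure D2:**
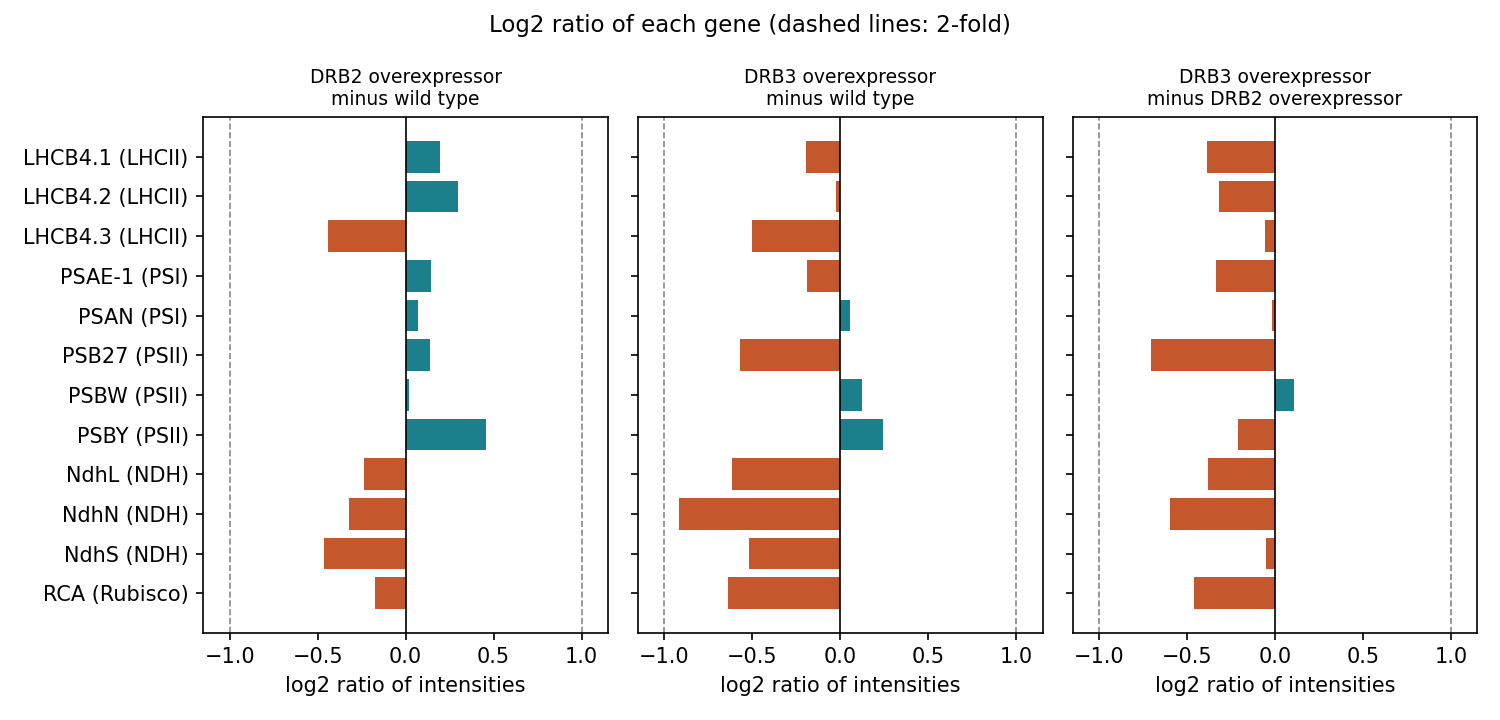
Log2 ratio of intensities of the 12 genes in each comparison, 1 bar per gene, with dashed lines at 2-fold and bar colour showing the sign. No bar reaches 2-fold, and the NDH bars lie below 0 in all 3 panels while PSBY lies above 0 in both comparisons with wild type. Of named genes above the floor, 48.3%, 50% and 51.2% have a ratio below 0 in the panels from left to right.

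Over the 12 genes, the DRB2 overexpressor had a median log2 ratio of 0.04 over wild type, with 7 genes above 0 and 5 below, against 51.7% above 0 among the named genes above the floor on all arrays, whose median was 0.01. The 8 antenna and photosystem genes had a median of 0.14, and 7 of them were above 0, LHCB4.3 being the exception. The other 4 genes, NdhL, NdhN, NdhS and RCA, were all below 0. No gene was at least 1.5-fold apart in this comparison, where 5.66% of genes above the floor were higher by that fold or more and 4.99% were lower by it.

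The DRB3 overexpressor had a median log2 ratio of -0.35 over wild type. It read lower than wild type for 9 of the 12 genes, against 50% of named genes above the floor, and PSAN, PSBW and PSBY read higher. NdhL, NdhN and RCA were at least 1.5-fold lower, 3 of 12 genes, where 9.79% of genes above the floor passed that fold. After quantile normalization and after loess RCA no longer passed it, which left 2 of 12. The median also depended on scaling, with -0.13 after quantile normalization and 6 of 12 genes below 0, and -0.21 after loess with 7 of 12 below 0. For the 8 antenna and photosystem genes the sign itself turned: their median of -0.10 as deposited was 0.15 after quantile normalization and 0.08 after loess.

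The DRB3 overexpressor set directly against the DRB2 overexpressor had a median of -0.33, with 11 of 12 genes below 0, against 51.2% of named genes above the floor. PSBW was the exception, with a log2 ratio of 0.11. PSB27 and NdhN were at least 1.5-fold lower, 2 of 12 genes, where 6.64% of genes above the floor were. After quantile normalization the median was -0.12 and after loess -0.20, with 10 of 12 genes below 0 in each. The DRB3 overexpressor was the lowest of the 3 arrays for 9 of the 12 genes, against 37.4% of named genes above the floor, and the DRB2 overexpressor was the lowest for 0, against 26.8%. After quantile normalization the DRB3 overexpressor was the lowest for 6 genes and the wild type for the other 6.

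Of the chloroplast-encoded genes of the same complexes, 30 were measured. On the DRB2 overexpressor array the chloroplast and nuclear medians over wild type differed in sign for both photosystems but not for the NDH complex. The 15 chloroplast genes of photosystem II had a median log2 ratio of -0.54 over wild type, with 14 below 0, against 48.3% of named genes above the floor. The 3 nuclear photosystem II genes had 0.14 with 0 below 0. The 5 chloroplast genes of photosystem I had -0.12, with 4 below 0, where the 2 nuclear ones had 0.11. For the NDH complex both lay below 0, with medians of -0.21 over 10 chloroplast genes and -0.32 over the 3 nuclear genes. Of these chloroplast genes, ndhF was under the floor on every array, and ndhH on the DRB2 overexpressor and wild-type arrays. Just above the floor, ndhG read 124 in the DRB2 overexpressor, 125 in the DRB3 overexpressor and 121 in wild type. The floor holds the ratios of ndhF and ndhH at or near 0 in every comparison. The sizes of the chloroplast and nuclear NDH medians are therefore not comparable. In the DRB3 overexpressor over wild type, chloroplast and nuclear medians were both below 0 for photosystem I, at -0.39 and -0.07, and for the NDH complex, at -0.15 and -0.62, while for photosystem II they were -0.15 and 0.12. Between the DRB3 and the DRB2 overexpressor, the chloroplast and nuclear medians were -0.22 and -0.17 for photosystem I, 0.26 and -0.21 for photosystem II, and 0.07 and -0.38 for the NDH complex. The photosystem values depended on scaling. In this comparison the nuclear medians were -0.02 for photosystem I and -0.03 for photosystem II after quantile normalization, and -0.05 and -0.10 after loess. The chloroplast photosystem I median was -0.05 after quantile normalization and -0.11 after loess, and that of photosystem II 0.27 and 0.25. The nuclear photosystem I median over wild type in the DRB3 overexpressor was 0.15 after quantile normalization and 0.11 after loess. The chloroplast photosystem I median over wild type was -0.16 and -0.24 in the same order. With 1 array per group the difference between the gene sets was not tested. Nor was the part in it of the DRB2 overexpressor array's poly(A) spike-ins, a median of 4.36-fold below wild type.

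**Figure D3:**
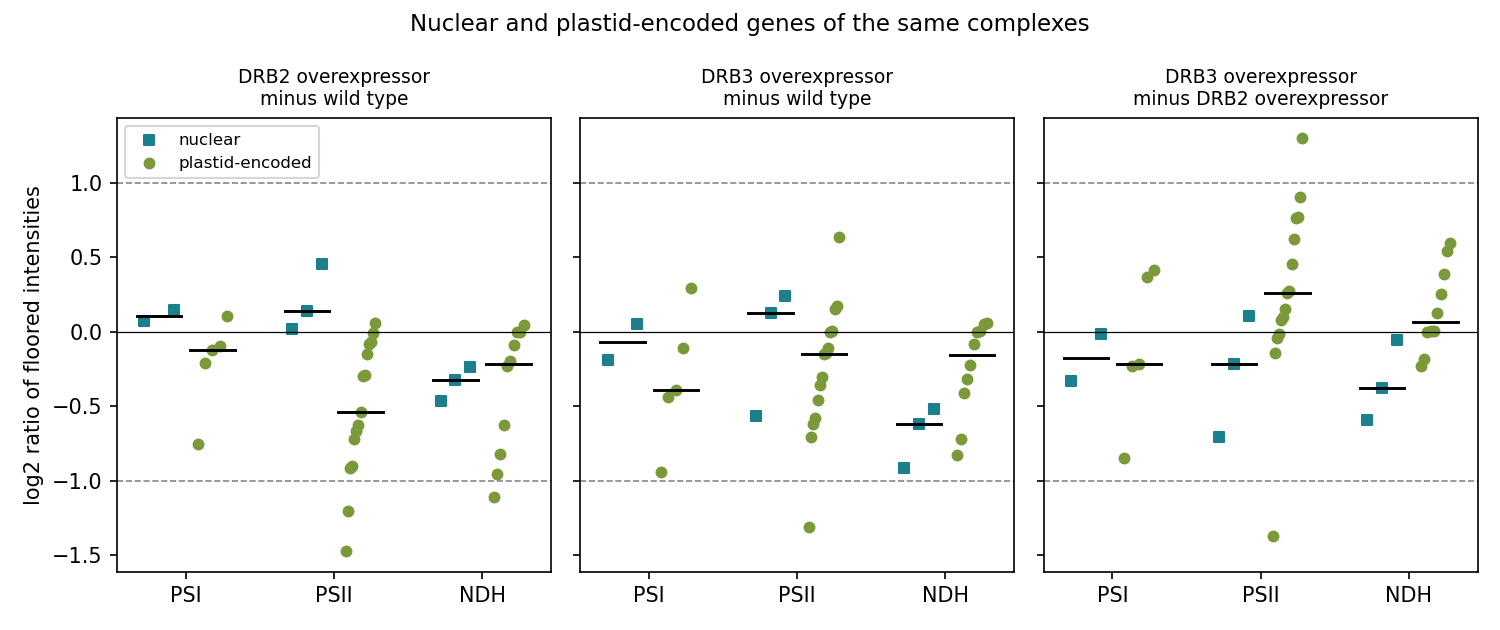
Log2 ratio of floored intensities of nuclear (squares) and plastid-encoded (circles) genes of photosystem I, photosystem II and the NDH complex in each comparison, 1 point per gene, with black bars at the medians and dashed lines at 2-fold. In the DRB2 overexpressor over wild type, the 3 nuclear photosystem II genes lie above 0 and 14 of the 15 plastid-encoded ones below.

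Genes of neighbouring steps of photosynthesis were read from lists of loci. Of 16 Calvin cycle genes 3 were measured, and all 3 read lower than wild type on both overexpressor arrays, with a median log2 ratio of -0.38 for the DRB2 overexpressor and of -0.51 for the DRB3 overexpressor. PRK, for phosphoribulokinase, which makes the substrate of Rubisco, read 13844 in the DRB2 overexpressor, 9361 in the DRB3 overexpressor and 18393 in wild type. In the DRB3 overexpressor it was close to 2-fold below wild type as deposited, at a log2 ratio of -0.97. The lowest ratio of the 3 genes in that comparison was -0.85 after quantile normalization and -0.83 after loess. SBPASE, for sedoheptulose bisphosphatase, read 9717 in the DRB2 overexpressor, 9028 in the DRB3 overexpressor and 12662 in wild type. PGK2, for a phosphoglycerate kinase, had log2 ratios of -0.25 and -0.51. As deposited, these genes and RCA had the same order of arrays, wild type highest and the DRB3 overexpressor lowest. After quantile normalization 1 of the 3 had a log2 ratio of 0.0025 between the DRB3 and the DRB2 overexpressor.

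Of 15 genes for other electron transport steps and the ATP synthase, 3 were measured. PETM, for a small subunit of the cytochrome b6f complex, read 21956 in the DRB2 overexpressor, 20679 in the DRB3 overexpressor and 32665 in wild type. Its log2 ratio over wild type in the DRB3 overexpressor, -0.66, was the lowest of the 3 genes. The lowest was -0.37 after quantile normalization and -0.45 after loess. ATPC1, for the gamma subunit of the chloroplast ATP synthase, had log2 ratios of -0.19 and -0.40 over wild type. PGRL1B, whose protein acts in cyclic electron flow by the route that does not use the NDH complex, had -0.18 and 0.12.

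Both measured genes of 6 for antenna-related proteins, LIL3:1 and LIL3:2, were lower than wild type on both arrays. LIL3 proteins hold the enzyme that makes the phytol tail of chlorophyll in the membrane. LIL3:2 read 3505 in the DRB2 overexpressor, 3298 in the DRB3 overexpressor and 5303 in wild type, log2 ratios of -0.60 and -0.69. LIL3:1 had log2 ratios of -0.22 and -0.53.

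Chlorophyll synthesis genes, 9 of 25 measured, did not share a direction. Their median log2 ratio over wild type was 0.11 in the DRB2 overexpressor, with 7 above 0, against 51.7% of named genes above the floor. In the DRB3 overexpressor it was 0.08, with 5 above 0 and 4 below, where 50% of named genes above the floor were below 0. CHLP, for the geranylgeranyl reductase that makes the phytol tail, read 11648 in the DRB2 overexpressor, 7968 in the DRB3 overexpressor and 12385 in wild type. CHLM, for magnesium protoporphyrin IX methyltransferase, read 8028 in the DRB2 overexpressor, 5882 in the DRB3 overexpressor and 8051 in wild type. Both read near wild type in the DRB2 overexpressor and lower in the DRB3 overexpressor, with log2 ratios of -0.64 and -0.45. PORB, for a protochlorophyllide oxidoreductase, was above wild type on both arrays, with log2 ratios of 0.12 and 0.29.

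Of 13 assembly and repair factors 4 were measured. HCF101, a factor for the iron-sulfur clusters of photosystem I, read 2386 in the DRB2 overexpressor, 1628 in the DRB3 overexpressor and 2772 in wild type. LPA2, which acts in photosystem II assembly, had log2 ratios over wild type of 0.08 and -0.0056, and PYG7, which acts in photosystem I assembly, of -0.03 and 0.20. The list's medians were -0.12 and -0.24. No gene of these 5 lists was 2-fold apart in any comparison. Of 18 light and plastid regulators and 8 senescence markers none was among the named genes, and they were not analysed here.

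**Figure D4:**
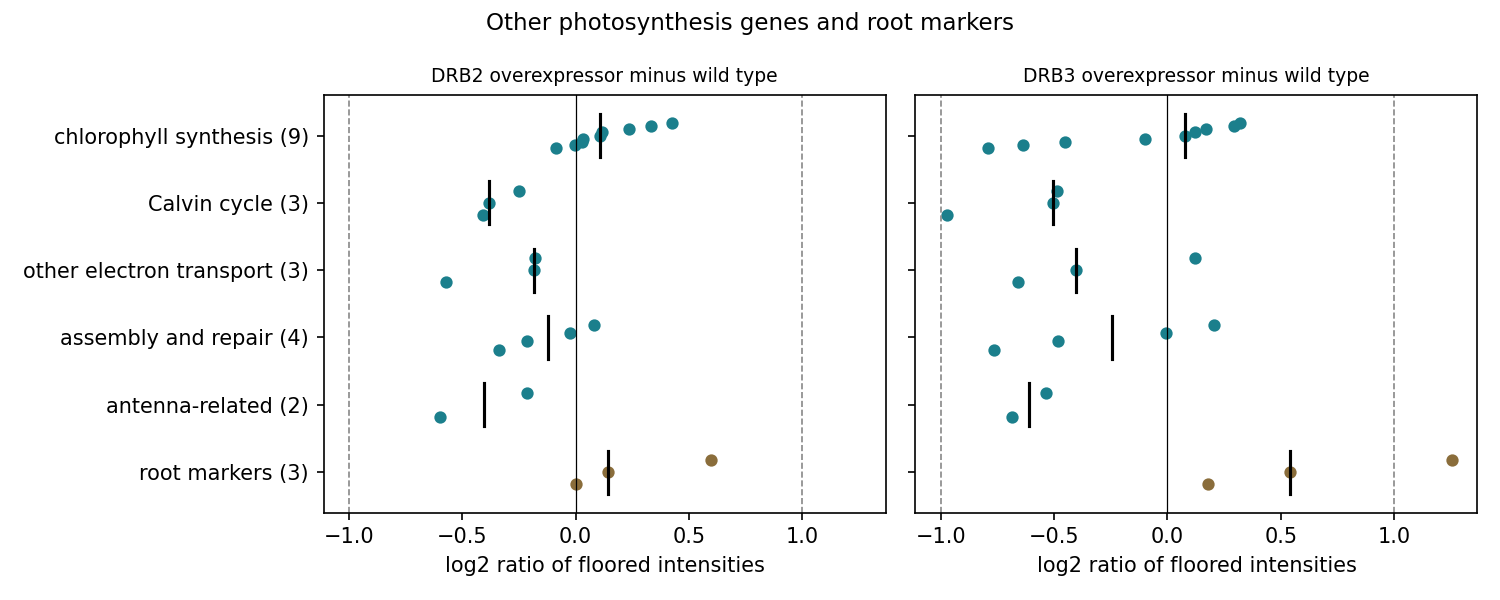
Log2 ratio of floored intensities over wild type of the measured genes of 5 photosynthesis lists and of the root markers, 1 point per gene, for the DRB2 overexpressor (left) and the DRB3 overexpressor (right), with black bars at the medians, dashed lines at 2-fold and the number of genes measured in brackets. All Calvin cycle and antenna-related points lie below 0 in both panels, and EXPA18 is the point beyond 2-fold among the root markers. Of named genes above the floor, 48.3% (left) and 50% (right) have a ratio below 0.

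Markers of the root and measures of RNA quality also differed between the arrays. Of 10 root markers 3 were measured, none at 0, and the sum of their intensities, which the bright PYK10 probe set sets almost alone, was 21750 in the DRB2 overexpressor, 22488 in the DRB3 overexpressor and 19585 in wild type. The root hair expansin genes read higher in the overexpressors, EXPA18 at 278 in the DRB2 overexpressor, 439 in the DRB3 overexpressor and 184 in wild type, and EXPA7 at 95.1, 158 and 52.1 in the same order, its DRB2 overexpressor and wild-type values being under the floor. The 3′ over 5′ signal ratio of control pairs grows as RNA is degraded or copied in part. For one GAPDH pair it was 5.77 in the DRB2 overexpressor, 3.89 in the DRB3 overexpressor and 9.31 in wild type, and for the other 2.11, 1.5 and 2.42 in the same order. For the Actin pair it was 6.45 in the DRB2 overexpressor, 5.01 in the DRB3 overexpressor and 13.0 in wild type. For one ubiquitin pair it was 4.61 in the DRB2 overexpressor, 3.89 in the DRB3 overexpressor and 4.66 in wild type, and for the other 2.47, 2.01 and 2.80 in the same order. All 5 ratios were lowest in the DRB3 overexpressor and highest in wild type, although in the first ubiquitin pair the DRB2 overexpressor was close to wild type. Of the genes of the set, the NDH genes, LHCB4.3 and RCA had this order as deposited. LHCB4.1, LHCB4.2, PSAE-1, PSAN, PSB27, PSBW and PSBY had other orders. Of the genes named from the photosynthesis lists, PRK, SBPASE, PGK2, PETM, ATPC1, LIL3:1, LIL3:2, CHLP, CHLM and HCF101 had this order too. PGRL1B, PORB, LPA2 and PYG7 had other orders. The share of all named genes with this order was not counted. The 18 probe sets of the hybridisation controls, added after labelling, all read below wild type on each overexpressor array, with median log2 ratios of -0.45 for DRB2 and -0.33 for DRB3. Poly(A) spike-ins, added to the RNA, were lower in 25 of 27 probe sets in the DRB2 overexpressor, a median of 4.36-fold, and in 22 of 27 in the DRB3 overexpressor, a median of 1.12-fold. The part of root share, RNA quality and these controls in the results was not tested. In whole seedlings, fewer green cells and less of a transcript per cell cannot be told apart.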

How the data were processed

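The authors deposited 1 intensity per probe set for each array, not log-transformed, and the submitters' processing notes name MAS5, with no version or settings given. Per the labels' protocols, biotinylated cRNA was made for Affymetrix arrays from 10 ug of total RNA. All arrays had a 2% trimmed mean of 500.05, so they had been scaled, and no further scaling was applied. Of 22810 probe sets, 64 were controls, 13513 had 1 gene, 503 had several and were not used, and 8730 were unnamed here. Where a gene had several, the probe set with the highest mean was kept. Symbols came from a RefSeq table (TAIR10.1) that matched 13286 of 13356 genes.

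The floor was percentile 40 of the probe sets outside the controls, averaged over the arrays, and lower values were raised to it before log2 ratios were computed. Genes at least 2-fold apart were counted, and no test was run, with 1 array per group. Ranks are shares of the 6779 genes above the floor on all arrays. Every gene of the set is named, and of the other lists up to 3 with the highest mean and any past 2-fold. The genes, lists and alternatives were chosen with earlier results of these data known. No sequences are shown. The computation of ratios was checked on simulated arrays with known changes. Computation used numpy 2.4.6, pandas 2.3.3 and statsmodels 0.14.6 under Python 3.11.15.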

Additional observations from a re-analysis of the deposited data

How the results depend on the processing

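All 12 genes had 1 probe set of the class without a suffix and were above even the floor at percentile 60, so floors at percentile 20 and 60, averaging the probe sets of a gene, and the omission of classes that bind related transcripts could not move them and say nothing about stability. A pseudocount of 16 without a floor and centring on the median gene moved no single ratio by over 0.1. Quantile normalization and loess with a span of 0.3 each moved 14 of 36 single ratios by over 0.1, by at most 0.32 and 0.22, and turned 4 and 3 signs. The median of the DRB3 overexpressor over wild type was -0.35 as deposited, -0.13 after quantile normalization and -0.21 after loess, and that of the DRB3 over the DRB2 overexpressor -0.33, -0.12 and -0.20. The median of the DRB2 overexpressor over wild type ranged from 0.03 to 0.11. The number of genes 2-fold apart was 0 under all of these and at 3-fold, and at 1.5-fold, on the deposited scale, it was 3 in the DRB3 overexpressor over wild type, falling to 2 without RCA after quantile normalization and after loess, and 2 in the DRB3 over the DRB2 overexpressor. The cause of these moves was not tested. No paired analysis was possible because each group has 1 array, and no array could be left out.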
